A study of Mus musculus with 58 samples.

Results

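Aminoacyl-tRNA synthetases are the enzymes that join each amino acid to its transfer RNA. Their messenger RNAs were followed in liver and kidney of mice given 1 dose of tetrachloroethylene (PCE) or trichloroethylene (TCE), chlorinated solvents that differ by a chlorine in place of a hydrogen. The set held 36 of the 24124 genes in the deposited tables. It was chosen by gene symbol, with transcript rows summed per symbol. The 20 symbols without a final 2 were taken as the cytosolic enzymes and the 16 symbols ending in 2 as the mitochondrial enzymes, all of which are encoded in the nucleus. Gars and Kars serve both compartments from a single gene.

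Tetrachloroethylene and trichloroethylene were each given at 0.22, 0.67, 2 and 6 mmol/kg, and each had its own vehicle group. The labels also give them as 30, 100, 300 and 1000 mg/kg PCE and as 24, 80, 240 and 800 mg/kg TCE, so the match in moles is nominal. The animals were male B6C3F1/J mice, although another label gives the strain as C57BL/6, aged 5 to 6 weeks, and every animal received a single intragastric dose in 5% Alkamuls EL-620 in saline. RNA-seq gave 58 libraries, 3 for each tissue, chemical and dose, but 2 for the kidney PCE vehicle group and 2 for liver at 0.67 mmol/kg PCE. The labels number the libraries of a group without stating how animals were assigned to them, so p-values measure the spread between these libraries. They do not state either whether a liver and a kidney library of the same number came from the same animal.

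The enzymes of the cytosol load transfer RNA for all nuclear-encoded proteins, while the mitochondrial enzymes serve the few proteins made inside the organelle. In mammals several cytosolic enzymes sit together in a multi-synthetase complex held by scaffold proteins encoded by Aimp1, Aimp2 and Eef1e1. When amino acids run short or the endoplasmic reticulum is stressed, phosphorylation of eIF2-alpha raises translation of the transcription factor ATF4, and many cytosolic synthetase genes are known ATF4 targets, alongside Asns, Trib3 and Chac1.

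ATF4 binds a composite DNA element, so promoter sequence was set beside the expression values. In the RefSeq promoter table (build GRCm38.p6), 27 of the 36 members matched an entry of 250 bases before to 50 bases after the start. Cars, Hars, Lars, Nars, Rars, Vars, Wars, Hars2 and Pars2 had none. The letters TGATGNAA, read on both strands, occurred in 5 of the 27 windows (18.5%), against 1219 of 27025 gene symbols (4.51%). These were the windows of Aars, Gars, Iars, Tars and Yars, thus 5 of 13 cytosolic and 0 of 14 mitochondrial members. A match describes the letters only, and no match says only that they are not in this window. The windows of Gars (chr6:55037751-55038050, plus strand), Aars (chr8:111033592-111033891, plus strand), Iars (chr13:49681880-49682179, plus strand) and Yars (chr4:129189653-129189952, plus strand) are shown because these genes were called in kidney, with the matched letters in capitals. Sars (chr3:108445210-108445509, minus strand) is shown as a called gene without a match. Yars was called for the PCE dose slope only. Tars had a match but was called neither at 6 mmol/kg PCE nor for that slope. Farsa and Cars2 were called in kidney and had windows without a match. The windows of Tars, Farsa and Cars2 are not shown. Counted from 0 at the start that the promoter table uses, matches began at position -30 in Gars, -112 and 9 in Aars, 7 in Iars and 3 in Yars, and in Gars, Aars and Iars the letters were those of the opposite strand. That start lay 6064 bases downstream of the gene's first base for Aars and 169 bases downstream for Yars, and at the first base for Gars, Iars and Sars.
Gars: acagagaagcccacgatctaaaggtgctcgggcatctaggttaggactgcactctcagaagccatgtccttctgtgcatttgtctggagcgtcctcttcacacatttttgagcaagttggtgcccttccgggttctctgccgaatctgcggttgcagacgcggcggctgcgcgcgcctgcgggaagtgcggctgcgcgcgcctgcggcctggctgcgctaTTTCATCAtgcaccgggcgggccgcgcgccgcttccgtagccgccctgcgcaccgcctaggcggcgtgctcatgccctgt
Aars: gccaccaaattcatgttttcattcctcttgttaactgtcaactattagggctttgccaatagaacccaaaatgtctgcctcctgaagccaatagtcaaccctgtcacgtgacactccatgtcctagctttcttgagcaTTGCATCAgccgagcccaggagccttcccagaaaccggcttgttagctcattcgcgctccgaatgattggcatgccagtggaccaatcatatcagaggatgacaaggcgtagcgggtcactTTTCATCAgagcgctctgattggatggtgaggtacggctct
Iars: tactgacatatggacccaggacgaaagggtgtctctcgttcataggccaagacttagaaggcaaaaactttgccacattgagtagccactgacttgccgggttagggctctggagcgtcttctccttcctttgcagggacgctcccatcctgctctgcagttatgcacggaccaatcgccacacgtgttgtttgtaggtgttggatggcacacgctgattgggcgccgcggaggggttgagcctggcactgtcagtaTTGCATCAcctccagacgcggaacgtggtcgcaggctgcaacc
Yars: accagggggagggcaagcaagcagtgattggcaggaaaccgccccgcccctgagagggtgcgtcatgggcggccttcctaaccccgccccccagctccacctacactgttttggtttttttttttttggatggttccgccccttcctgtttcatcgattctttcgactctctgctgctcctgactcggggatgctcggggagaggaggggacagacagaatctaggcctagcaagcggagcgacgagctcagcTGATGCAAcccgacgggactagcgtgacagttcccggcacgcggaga
Sars: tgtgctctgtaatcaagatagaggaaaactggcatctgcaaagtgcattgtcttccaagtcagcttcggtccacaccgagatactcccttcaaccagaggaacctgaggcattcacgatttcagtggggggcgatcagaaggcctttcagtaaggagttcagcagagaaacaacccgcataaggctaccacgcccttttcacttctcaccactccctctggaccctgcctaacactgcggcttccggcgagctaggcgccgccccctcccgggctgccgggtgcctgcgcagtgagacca

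Total counts per library in liver were 88048143 to 125880542 in the 6 mmol/kg and vehicle groups and 30932385 to 65112568 at the doses between, so depth moved with dose there and its part in the liver slopes was not tested. In kidney they were 23247565 to 32420329. Levels are given as CPM (counts scaled to a common library size), scaled with trimmed-mean (TMM) factors within a tissue. Reads were counted per transcript, and 19.68% to 22.55% of a library was set aside as ambiguous. The 23 members with 1 transcript row had a median mean count of 2124.4 in liver and 1486.5 in kidney, while the 13 members with several rows, among them Sars, Kars, Cars, Mars and Wars, had 105.0 in liver and 43.2 in kidney. Their levels cannot be compared with those of other members. Pars2, the mitochondrial proline enzyme, had 0 or 1 count in every library and was never tested, and Farsb was too low to test in liver. The tissue labels fitted their markers: hepatocyte genes summed to 79130 to 151215 CPM in liver, and proximal tubule genes to 50176 to 79147 CPM in kidney. Adrenal markers reached 4662 CPM in 1 kidney library, at 0.67 mmol/kg TCE, and brown fat markers 172 CPM in another. A change called here has an adjusted p under 0.05 over all genes tested in edgeR's quasi-likelihood test.

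In kidney the highest dose of PCE raised 5 cytosolic synthetases by 1.31-fold to 2.26-fold, lowered Farsa and lowered 1 mitochondrial enzyme, Cars2. These 7 calls came from 35 members tested, against 4.09% of all 14215 genes (1.6% higher and 2.49% lower). The 20 cytosolic members together reached 1386, 1384 and 1299 CPM in the 3 libraries at 6 mmol/kg, against 1118 and 1118 CPM in the PCE vehicle libraries. These 3 libraries lay above the other 26 kidney libraries, which ranged over 982.7 to 1194 CPM. The count of 7 calls was 3 without PCE vehicle library 1, 2 without PCE vehicle library 2 and 4 without library 1 at 6 mmol/kg PCE.

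**Figure D1:**
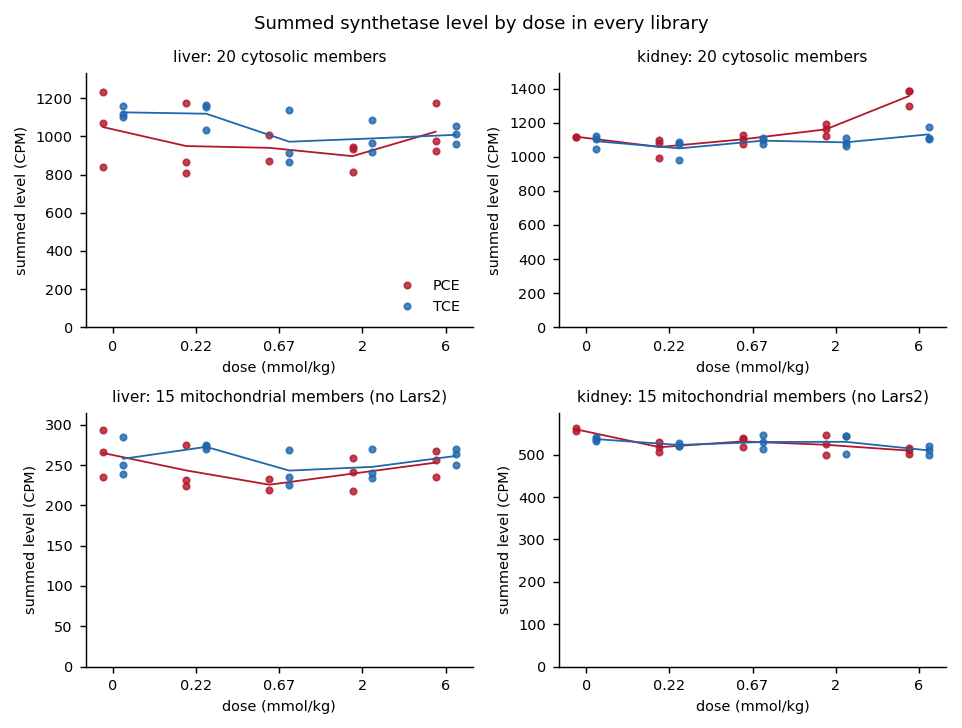
Summed level in CPM (vertical axis, from 0) of the 20 cytosolic members and of 15 mitochondrial members, Lars2 left out, in each library by dose in mmol/kg, in liver and kidney. Doses are equally spaced, 0 is vehicle, points are libraries and lines join group means. The cytosolic sum in kidney at 6 mmol/kg PCE (1299 to 1386 CPM) lay above every other kidney library.

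Gars, the glycine enzyme, had 186, 167 and 153 CPM at 6 mmol/kg PCE, against 103 and 101 CPM in PCE vehicle kidneys. The groups did not overlap, and the log2 change of 0.73 (SE 0.0733, 95% interval 0.580 to 0.883, adjusted p 4.4e-06) ranked 2 by p among all genes. Iars, the isoleucine enzyme of the multi-synthetase complex, had 130, 119 and 126 CPM, against 80.0 and 83.5 CPM in vehicle kidneys. Its change was 0.61 (SE 0.0903, adjusted p 0.000439), and again every dosed library was above both vehicle libraries. Gars and Iars held in all 39 alternative settings, those that left out 1 library included.

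Sars, which charges serine, had the largest called fold, 2.26, at 6.76, 5.24 and 5.03 CPM at 6 mmol/kg PCE, against 2.62 and 2.39 CPM in vehicle kidneys. It rested on few counts, 149 to 170 per dosed library and 68 and 75 in the vehicle libraries, because only reads particular to 1 of its transcript rows were counted. Its log2 change was 1.18 (SE 0.1988, adjusted p 0.0015). Without PCE vehicle library 2 its adjusted p was 0.0618.

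Aars, the alanine enzyme, had 253, 287 and 265 CPM at 6 mmol/kg PCE, against 210 and 199 CPM in vehicle kidneys, a change of 0.39 (SE 0.0835, adjusted p 0.00748). Lars, the leucine enzyme of the complex, had 90.5, 65.1 and 64.5 CPM, against 52.7 and 51.1 CPM, a change of 0.50 (SE 0.1112, adjusted p 0.0102). Library 1 at 6 mmol/kg stood above the other 2 for Lars. The adjusted p of Lars was 0.0606 without that library, with a change of 0.33. Without PCE vehicle library 1 or 2 it was 0.0958 or 0.141 for Lars and 0.0566 or 0.141 for Aars.

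Farsa, the catalytic subunit of the phenylalanine enzyme, went the other way. It had 46.7, 49.5 and 46.2 CPM at 6 mmol/kg PCE, against 59.0 and 56.4 CPM in vehicle kidneys, and fell by 0.28 on the log2 scale (SE 0.0799, adjusted p 0.0463). Its partner subunit gene Farsb had 9 to 14 counts in dosed libraries and 11 and 13 in vehicle libraries and was not called. Cars2, which charges cysteine in mitochondria, had 29.2, 29.5 and 28.5 CPM, against 36.8 and 35.6 CPM, and fell by 0.31 (SE 0.0824, adjusted p 0.0292). No dosed library reached a vehicle library for Farsa or Cars2, yet Cars2 lost its call in 9 and Farsa in 26 of the 39 alternatives.

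Yars, the tyrosine enzyme, stood just outside the threshold at 82.6, 88.8 and 75.4 CPM, against 71.0 and 63.8 CPM (0.29, adjusted p 0.0511). Nars, which charges asparagine, had 8.08, 9.85 and 9.15 CPM at 6 mmol/kg PCE, against 5.82 and 6.42 CPM in vehicle kidneys (0.56, adjusted p 0.129). Kars had the highest fitted change, 1.26, on 9 to 13 counts per dosed library and 4 and 5 counts in vehicle libraries (adjusted p 0.337). The 14 cytosolic members not called ran over -0.10 (Rars) to 1.26 (Kars). Among the 35 members, 16 had an unadjusted p under 0.05 (45.7%, against 16.7% of all genes). Across the 20 cytosolic members the median log2 change was 0.261 with 16 above 0, against a median of 0.018 over all genes, of which 52.8% were above 0. The 12 members on a list of known ATF4 targets had a median of 0.529, all 12 above 0 and 5 called; the 8 not on that list had a median of 0.056 with 4 above 0. That list was drawn up with results of these data known, so the medians and counts on and off it are a description.

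The 15 mitochondrial members tested had a median log2 change of -0.127 at this dose, with 3 above 0. Without Lars2, their summed level was 512.3, 516.6 and 500.7 CPM at 6 mmol/kg PCE, against 562.6 and 557.3 CPM in PCE vehicle kidneys. The 2 groups did not overlap, and all other kidney libraries lay between 498.4 and 546.9 CPM. Next by p after Cars2 came Rars2 (-0.28, adjusted p 0.0634), Mars2 (-0.44, adjusted p 0.0748) and Aars2 (-0.27, adjusted p 0.101), the arginine, methionine and alanine enzymes of the organelle. The 14 mitochondrial members not called ran over -0.44 (Mars2) to 0.62 (Lars2). The difference between the cytosolic and mitochondrial medians was not tested.

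**Figure D2:**
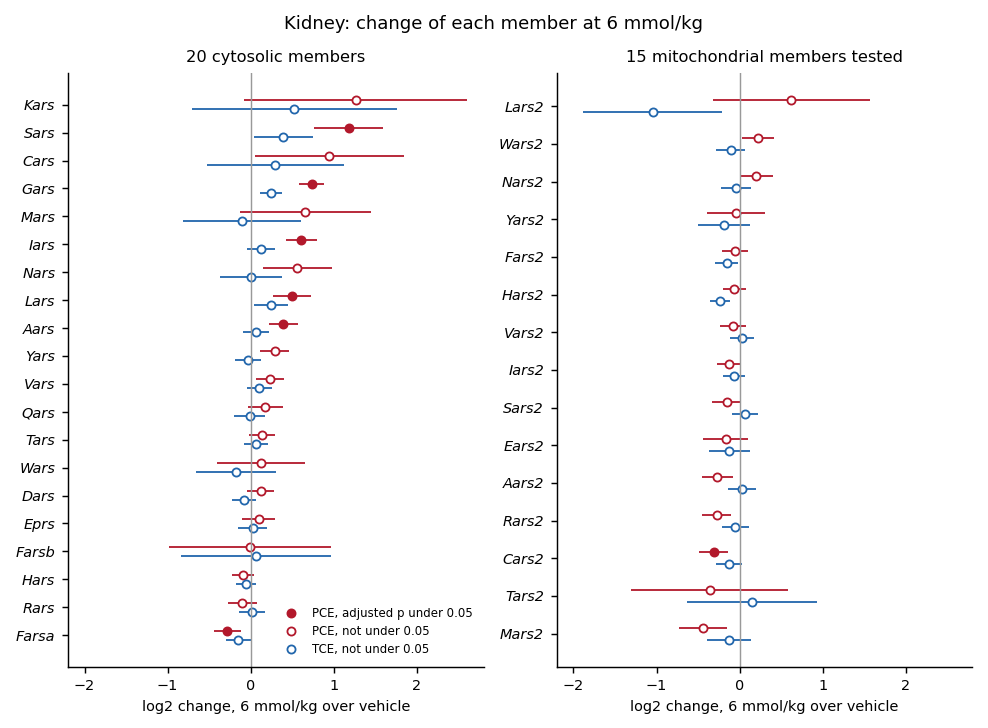
Log2 change at 6 mmol/kg over the chemical's own vehicle group in kidney (horizontal axis), with 95% intervals, for each member tested, PCE above TCE in each pair; filled points have an adjusted p under 0.05. Filled points are Sars, Gars, Iars, Lars, Aars, Farsa and Cars2, all under PCE.

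The enzymes of the multi-synthetase complex had a median log2 change of 0.337, beside 0.261 for the cytosolic members outside it. Within the complex Iars and Lars rose, whereas Eprs, the joined glutamate and proline enzyme, changed by 0.10 (95% interval -0.101 to 0.291) and Rars by -0.10, neither of them called. Of the 3 scaffold genes, Aimp1 rose by 0.48 (adjusted p 0.0116) and Aimp2 and Eef1e1 were not called.

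At the doses below 6 mmol/kg 0 members were called in kidney. Under PCE 0%, 0% and 0.0141% of genes were called at 0.22, 0.67 and 2 mmol/kg, and under TCE 0%, 0.00703% and 0%. Between 0 and 5 of the 35 members had an unadjusted p under 0.05 in each lower-dose kidney comparison, the 5 at 2 mmol/kg PCE (14.3%, against 6.25% of all genes). Gars had 101, 94.8 and 103 CPM at 0.22 mmol/kg, 108, 102 and 107 CPM at 0.67 mmol/kg and 117, 119 and 123 CPM at 2 mmol/kg. Its libraries at 2 mmol/kg all lay above both vehicle libraries, with a change of 0.23 (95% interval 0.081 to 0.380, adjusted p 0.445). Iars had 88.3, 92.8 and 103 CPM at 2 mmol/kg, also above both vehicle libraries, and a change of 0.21 (adjusted p 0.677). Sars had 3.21, 2.99 and 2.86 CPM there.

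A slope over the 5 dose ranks gave a log2 change per dose step. Under PCE in kidney Gars (0.19 per step, adjusted p 0.00382), Sars (0.31, 0.00849), Iars (0.17, 0.00869), Aars (0.12, 0.0134) and Yars (0.10, 0.0357) rose and Farsa fell by 0.06 (adjusted p 0.0358). These 6 calls, with 0 among the mitochondrial members, stand beside 3.37% of 13817 genes (1.94% higher and 1.43% lower). Lars was not among them. In the profiles by dose the group means of Gars, Sars, Iars and Aars at 0.22 and 0.67 mmol/kg stayed close to the vehicle level.

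**Figure D3:**
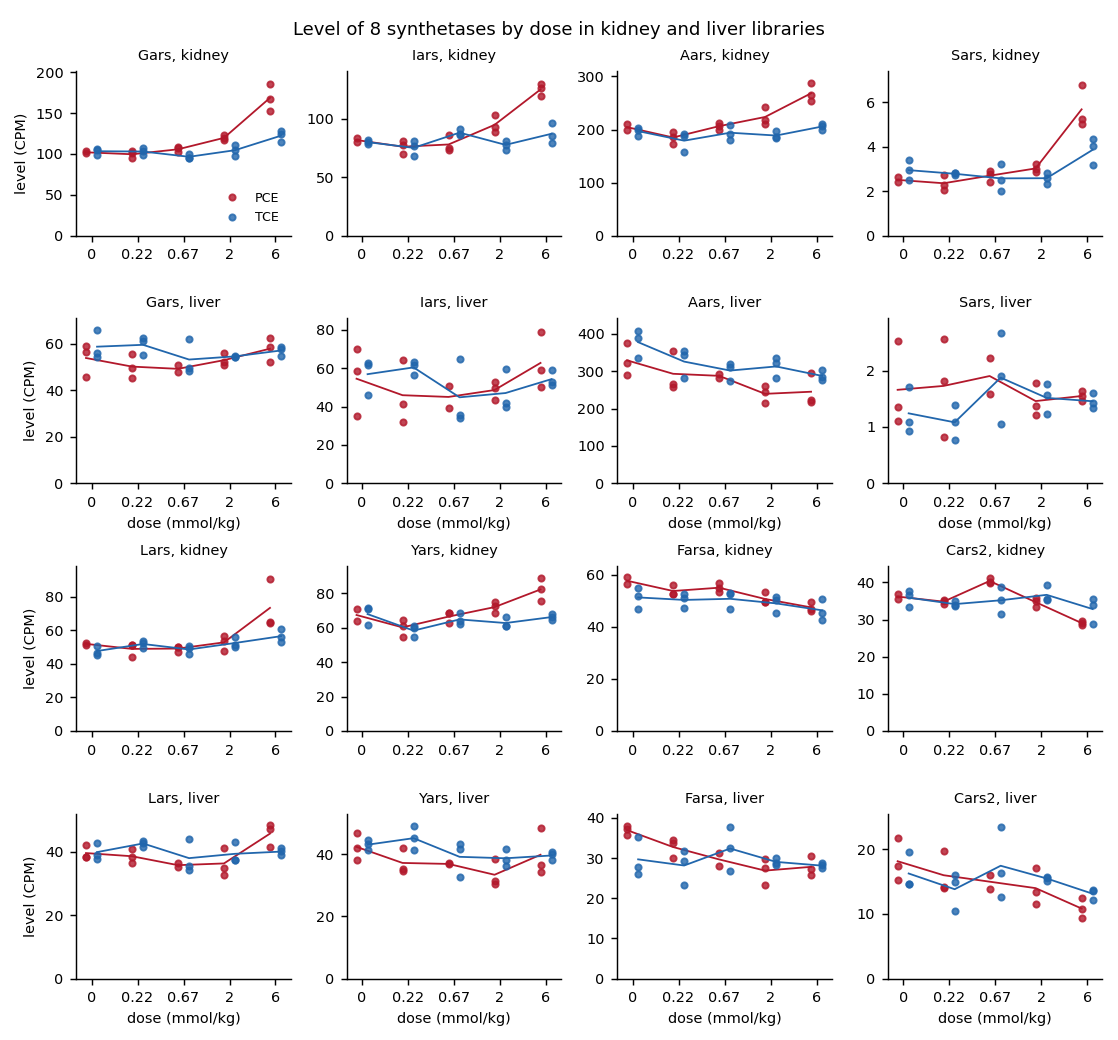
Level in CPM (vertical axis, from 0) of 8 members in each library by dose in mmol/kg, in kidney and liver; doses are equally spaced, 0 is vehicle, points are libraries and lines join group means. In kidney Gars reached 153 to 186 CPM at 6 mmol/kg PCE and 115 to 128 CPM at 6 mmol/kg TCE, while the liver panels of Gars, Iars and Sars overlap between doses.

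TCE at 6 mmol/kg gave 0 calls among the 35 members in kidney, where 26 genes (0.183%) were called in all. Before adjustment 6 members had p under 0.05 (17.1%, against 10.2% of all genes). DESeq2 called Gars higher and Hars2 lower, among 160 genes in all. Gars had 124, 128 and 115 CPM at 6 mmol/kg TCE, against 106, 105 and 98.9 CPM in TCE vehicle kidneys, without overlap (0.25, 95% interval 0.112 to 0.378, adjusted p 0.109). Hars2, the mitochondrial histidine enzyme, had 40.9, 39.8 and 44.4 CPM, against 46.8, 51.5 and 49.1 CPM (-0.24, adjusted p 0.0888). Iars had 85.6, 96.2 and 79.5 CPM, against 78.1, 81.9 and 79.8 CPM, and these libraries overlapped. Lars2 had 5359, 3567 and 6267 CPM, against 5681, 7011 and 18660 CPM (-1.05, adjusted p 0.332). Along the TCE dose series 0 of 13701 genes had a called slope, while 4 of 34 members had p under 0.05 before adjustment (11.8%, against 9.07% of all genes) and DESeq2 called 0 members.

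The 2 solvents were then set against each other at 6 mmol/kg, each relative to its own vehicle. All 35 members were compared as PCE minus TCE, with p-values adjusted over 14215 genes. There were 0 calls among the members and 3 genes (0.0211%) in all. Before adjustment 8 members had p under 0.05 (22.9%, against 7.78% of all genes). DESeq2 called Gars and Iars, among 49 genes in all. The difference for Gars was 0.49 (95% interval 0.286 to 0.686, adjusted p 0.115). For Iars it was 0.49 (0.238 to 0.733, adjusted p 0.210), for Sars 0.78 (0.242 to 1.325, adjusted p 0.405) and for Aars 0.33 (adjusted p 0.408). These intervals lie above 0, but the calls under PCE and their absence under TCE do not by themselves show that the solvents differ.

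Other genes of the ATF4 pathway were called in the same kidneys. Of 22 tested from a list of 24 outside the synthetases, 9 rose and 0 fell at 6 mmol/kg PCE, with a median of 0.718. This list too was chosen with earlier results of these data known, so its counts and median are a description. Asns, which makes asparagine, had 43.8, 55.5 and 40.9 CPM, against 3.93 and 3.35 CPM in PCE vehicle kidneys, a 12.8-fold rise. Trib3, a pseudokinase induced by ATF4, rose 12.9-fold. Eif4ebp1, an inhibitor of cap-dependent translation, rose by 1.89, Mthfd2 of mitochondrial folate metabolism by 2.53 and Chac1, which degrades glutathione, by 3.22 on the log2 scale. Under TCE at this dose Asns had 26.2, 31.0 and 11.3 CPM, against 6.34, 4.94 and 7.28 CPM in TCE vehicle kidneys (1.89, adjusted p 0.0221), and Phgdh and Mthfd2 rose with it. Under PCE 0 of 10 genes of tRNA supply and 0 of 9 elongation factor genes were called, and 1 of 13 other tRNA-charging genes, Sephs2, rose by 0.38 (adjusted p 0.0438). With 4.09% of all genes called, counts of 0 and 1 in lists of this size do not set them apart from other genes.

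Cell-type markers moved too. Proximal tubule genes summed to 50176 to 51834 CPM at 6 mmol/kg PCE, against 68474 to 70200 CPM in PCE vehicle kidneys. Kap among them fell by 0.53 (adjusted p 0.00729). Over all kidney libraries Kap (median 45929 CPM) made up most of the proximal tubule sum, ahead of Slc34a1 (median 11375 CPM). The proximal tubule sum therefore stands largely for Kap. Macrophage markers summed to 64.7 to 90.9 CPM, against 77.6 to 96.7 CPM. Markers of other kidney segments summed to 638 to 705 CPM, against 723 to 821 CPM, and pancreas markers to 57.7 to 99.7 CPM, against 142 to 155 CPM, both without overlap. Cela1, at 57.7 to 155 CPM over all kidney libraries, made up almost all of the pancreas sum. That sum therefore stands for Cela1 rather than for a cell type. In bulk tissue fewer cells of a type and less RNA per cell cannot be told apart, and the part of these shifts in the synthetase values was not tested. Brown fat markers summed to 0.796 to 172 CPM, against 4.35 to 15.4 CPM, with the highest value in library 3 at 6 mmol/kg PCE. With the 9 kidney libraries above 10 CPM of Ucp1 left out, an alternative chosen after seeing the data, Aars, Gars, Iars, Lars and Sars were called higher and 0 members lower. This setting called 416 genes in all at 6 mmol/kg PCE, in place of 581.

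In liver the same dose of PCE left the cytosolic members without a call and lowered 3 mitochondrial enzymes. Other settings also called cytosolic members lower. These were Aars, Farsa and Vars with DESeq2, Aars and Vars with both vehicle groups pooled, and Farsa with total counts. The 3 calls of 34 members tested stand beside 5.83% of 13173 genes (3.55% lower). At an unadjusted p under 0.05 were 7 members (20.6%, against 25.5% of all genes), so these counts do not set the members apart from other genes. Aars2 had 18.5, 21.2 and 17.5 CPM at 6 mmol/kg PCE, against 25.7, 28.5 and 27.3 CPM in PCE vehicle livers, and fell by 0.51 (SE 0.1119, adjusted p 0.0133). Sars2, the mitochondrial serine enzyme, had 10.4, 13.3 and 12.4 CPM, against 15.1, 18.2 and 16.1 CPM, and fell by 0.45 (SE 0.125, adjusted p 0.0359). Cars2 had 9.42, 12.4 and 10.7 CPM, against 15.3, 21.7 and 17.5 CPM, and fell by 0.75 (SE 0.2072, adjusted p 0.0368). For all 3 genes, which were picked by their calls, the dosed and vehicle libraries did not overlap. The share of all genes without overlap was not counted. The count of 3 became 0 without PCE vehicle library 2 or without library 1 or 3 at 6 mmol/kg PCE, 1 without PCE vehicle library 3, and 5 without library 2 at 6 mmol/kg PCE or TCE vehicle library 1.

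Base composition is given beside these liver decreases. The transcripts of Aars2, Sars2 and Cars2 hold 60%, 60.1% and 55.8% G and C, beside a median of 49.4% over all genes. The slope of log2 level on GC content, per 10 points, was -0.218, -0.177 and -0.341 in the liver libraries at 6 mmol/kg PCE, against 0.039, 0.21 and 0.001 in PCE vehicle livers. Vars (60.9%, -0.34), Vars2 (58.6%, -0.32), Ears2 (58.1%, -0.26) and Fars2 (56.6%, 0.35), also richer in G and C than Cars2, were not called at this dose. Neither were Farsa (56.6%) and Aars (56.4%), with group means of 27.8 and 245 CPM, against 36.9 and 329 CPM in PCE vehicle livers. The relation over members was not tested. With each library's length and GC slopes as covariates 0 members were called, and over all genes 16 in place of 768. Aars2 was then at -0.20 (adjusted p 0.44), Sars2 at -0.19 (0.558) and Cars2 at -0.01 (0.986). The GC slopes of dosed and vehicle livers did not overlap, and they come from the same expression values. This fit therefore cannot separate the slopes from dose, and the part of base composition in the decreases was not tested. In kidney the slopes were -0.015, 0.013 and 0.022 at 6 mmol/kg PCE, against 0.061 and -0.037, and the same setting called 10 members in place of 7, and over all genes 901 (6.34%) in place of 581.

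The synthetases that rose in kidney were not called in liver at 6 mmol/kg PCE. Gars changed by 0.10 (95% interval -0.140 to 0.346), Iars by 0.20 (-0.351 to 0.756) and Sars by -0.10 (-0.842 to 0.651). The Gars and Sars intervals ended below their kidney changes, and the Iars interval did not. Aars averaged 245 CPM, against 329 CPM in PCE vehicle livers, and Lars 45.7 CPM, against 39.6 CPM. The cytosolic sum was 923.1, 1175 and 977.4 CPM at 6 mmol/kg PCE, against 1073, 839.5 and 1235 CPM in PCE vehicle livers, and these libraries overlapped. Of the ATF4 list 19 genes were tested in these livers, 3 rose and 0 fell, with a median of 0.220, beside 5.83% of all genes called. These were Trib3, Sesn2 and Chac1, with log2 changes of 1.30, 1.03 and 1.98. Hepatocyte markers summed to 117244 to 148530 CPM at 6 mmol/kg PCE, against 114191 to 121889 CPM, and macrophage markers to 165 to 301 CPM, against 90.9 to 295 CPM. Pancreas markers summed to 12.3 to 29.5 CPM, against 58.3 to 59.7 CPM, and brown fat markers to 305 to 757 CPM, against 1095 to 1525 CPM, both without overlap. Over all liver libraries Cela1 (11.7 to 75.3 CPM) made up almost all of the pancreas sum. Elovl3 (305 to 1951 CPM) made up almost all of the brown fat sum. These sums therefore stand for those genes rather than for a cell type. The part of these shifts in the liver values was not tested.

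Below 6 mmol/kg 1 member was called in liver. At 2 mmol/kg PCE Vars, the valine enzyme, fell, with 46.4, 44.2 and 38.9 CPM, against 66.7, 58.7 and 63.9 CPM in vehicle livers (-0.55, SE 0.1116, adjusted p 0.0375). This was 1 call of 34 members, beside 24 genes (0.182%) in all, or 0.0607% counting the lower ones, and it was lost in 14 of 38 alternatives. Along the PCE dose series in liver Aars2 (-0.14 per step, adjusted p 0.00831), Sars2 (-0.12, 0.0151), Farsa (-0.11, 0.0163), Cars2 (-0.17, 0.0211) and Aars (-0.11, 0.044) fell, beside 11.8% of 13028 genes, or 6.72% counting the lower ones. These 5 calls were 3 without PCE vehicle library 2 and 2 without library 1 or 3 at 6 mmol/kg PCE. For this slope 9 of 34 members had an unadjusted p under 0.05 (26.5%, against 29.2% of all genes). Farsa and Aars transcripts hold 56.6% and 56.4% G and C. With the GC and length covariates 0 members had a called slope, and over all genes 143 in place of 1535. The GC slopes of the liver libraries also moved along the PCE doses, so this fit cannot separate them from dose. At 0.22 and 0.67 mmol/kg PCE and at 0.67 and 2 mmol/kg TCE 0 members were called, beside 0.00759% of genes each, and 0 beside 0% at 0.22 mmol/kg TCE. TCE at 6 mmol/kg called 0 members in liver, beside 172 genes (1.31%), while 2 members had p under 0.05 before adjustment (5.88%, against 11.7% of all genes) and DESeq2 called 0. Aars, with the smallest p, had 284, 276 and 302 CPM at 6 mmol/kg TCE, against 407, 336 and 390 CPM in TCE vehicle livers (-0.40), and these libraries did not overlap. Lars2 followed at 3608, 8207 and 8047 CPM, against 4260, 2064 and 1985 CPM (1.26), and Dars, the aspartate enzyme, at 69.7, 59.3 and 63.1 CPM, against 44.9 to 52.5 CPM (0.38). The TCE slope called 0 members beside 0.851% of 12451 genes, with 3 of 33 at an unadjusted p under 0.05 (9.09%, against 14.2% of all genes), and DESeq2 called 1. PCE minus TCE at 6 mmol/kg in liver called 0 of 13173 genes, with 2 members, Aars2 and Sars2, at an unadjusted p under 0.05 (5.88%, against 8.87% of all genes), and DESeq2 called 0 members.

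The response to 6 mmol/kg PCE was compared between tissues in a joint fit of all 58 libraries, which takes the tissues as independent. The difference liver minus kidney was called for 3 members, beside 106 of 14948 genes (0.709%, with 0.334% lower). It was -0.84 for Aars (adjusted p 0.00682), -0.64 for Gars (adjusted p 0.01) and -0.59 for Vars (adjusted p 0.0167). Aars and Vars joined an uncalled lower value in liver (-0.43 and -0.34) to a higher value in kidney (0.39, called, and 0.23, not called). For Gars the kidney rise of 0.73 stood beside 0.10 in liver. In liver Gars had 52.3, 62.6 and 58.7 CPM at 6 mmol/kg PCE, against 56.5, 45.9 and 59.2 CPM in PCE vehicle livers, and Aars had 217, 295 and 223 CPM, against 321, 291 and 375 CPM. Vars had 45.1, 60.0 and 44.4 CPM in dosed livers, against 66.7, 58.7 and 63.9 CPM in vehicle livers, and 83.8, 83.7 and 84.1 CPM in dosed kidneys, against 72.9 and 69.9 CPM in vehicle kidneys. The dosed and vehicle libraries overlapped in liver for all 3 genes and did not overlap in kidney, where only 2 vehicle libraries stood against 3 dosed ones. These genes were picked by the contrast, and the share of all genes without overlap was not counted. With the length and GC slopes as covariates the difference lost its call for Aars (adjusted p 0.0597) and Vars (0.252), and 0 of the 3 calls were left without PCE vehicle kidney library 2, against 1 without PCE vehicle kidney library 1 or without liver library 1 at 6 mmol/kg PCE. The GC slopes did not overlap between dosed and vehicle livers, so the fit with slopes cannot separate them from the PCE response. With same-numbered liver and kidney libraries as blocks, Aars (-0.76, adjusted p 0.0282) and Vars (-0.61, adjusted p 0.0451) kept the call. Gars did not (-0.58, adjusted p 0.0819). These blocks were an alternative chosen after seeing the data. Of the ATF4 list Eif4ebp1, Mthfd2, Asns, Trib3 and Atf5 were also lower in this contrast. For TCE the contrast called 0 members beside 0.328% of genes, with 5 at an unadjusted p under 0.05 (14.3%, against 8.86% of all genes). DESeq2 called Lars2 for TCE, among 189 genes in all.

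Vehicle libraries showed how the set differs between the tissues before any solvent. The direction for most members depended on the scaling, and the TMM factors averaged 0.688 in liver and 1.46 in kidney. With TMM scaling 13 cytosolic members were higher and 0 lower in liver, and 7 mitochondrial members were higher and 5 lower, beside 72.9% of 14948 genes called (35.8% higher and 37.1% lower). With total counts as the scale, an alternative chosen after seeing the data, the median of all genes was -1.064 in place of 0.008, and 4 members were called higher and 23 lower in liver. The median cytosolic member stood at 0.442 under TMM and -0.614 under total counts, and the median mitochondrial member at 0.405 and -0.657. Of the 35 members 28 were above 0 under TMM and 5 under total counts. With the length and GC slopes as covariates the calls of Dars, Gars, Rars, Lars2 and Iars2 were lost, while 25 members were called in all, the same number as without them.

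Called the same way under both scalings were 4 members higher in liver and 5 lower. Tars, the threonine enzyme, had 183, 250, 255, 247, 121 and 290 CPM in vehicle livers, against 40.1, 39.3, 38.6, 40.8 and 42.3 CPM in vehicle kidneys, a log2 difference of 2.47 under TMM and 1.42 under total counts. Aars had 445 to 626 CPM in liver, against 128 to 144 CPM in kidney (1.91 and 0.83). Mars (3.28 and 2.19), on few reads in kidney, and Nars2 (1.29 and 0.23) completed the higher members. Rars2 went the other way, with 20.1 to 24.9 CPM in liver, against 47.9 to 52.7 CPM in kidney (-1.17 and -2.25). Mars2 (-1.24 and -2.30), Wars2 (-0.93 and -2.00), Fars2 (-0.83 and -1.88) and Iars2 (-0.35 and -1.42), which charge methionine, tryptophan, phenylalanine and isoleucine in mitochondria, were also lower in liver. With the length and GC slopes Iars2 was at -0.20 (adjusted p 0.144), and with the slopes and the replicate block Fars2 was at -0.50 (adjusted p 0.079).

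**Figure D4:**
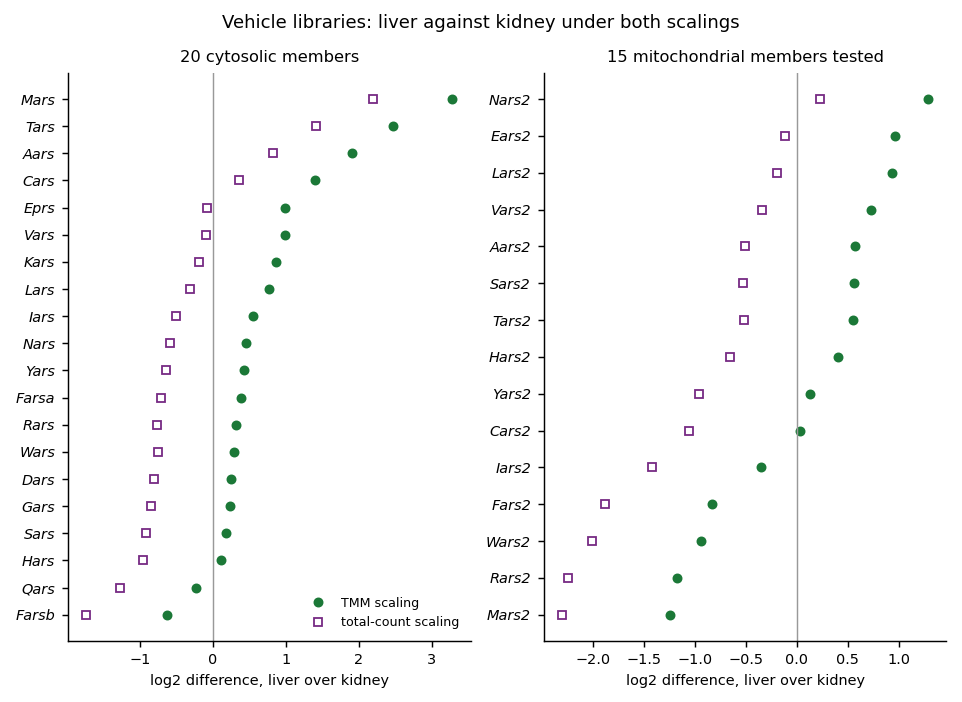
Log2 difference of liver over kidney in vehicle libraries (horizontal axis) for each member tested, with TMM scaling (filled circles) and total-count scaling (open squares). The members at 0 or above under both scalings include Mars, Tars, Aars and Nars2; Rars2, Mars2, Wars2, Fars2 and Iars2 are below 0 under both.

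Levels per kilobase allowed members with 1 transcript row to be ordered within a tissue. In vehicle liver the cytosolic median was 18.4 CPM per kb, with Lars lowest (9.98) and Tars highest (38.3 ± 11.4, SD), and the mitochondrial median without Lars2 was 8.06. In vehicle kidney the cytosolic median was 26.4 CPM per kb, running over Lars (12.4) to Gars (43.2 ± 1.27), and the mitochondrial median was 10.5. Lars2 left out, in kidney Gars, Hars (39.1 ± 2.2) and Rars2 (38.9 ± 1.29) led this order, and Hars and Rars2 differed by less than their SDs. Mars2 had the lowest values, 0.228 CPM per kb in liver and 1.13 in kidney. The length used for it, 11294 bases, exceeds the span of its gene (chr1:55237177-55240058), so its place in this order is not known.

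Lars2, the mitochondrial leucine enzyme, stood apart from the rest of the set. It took 87.8% to 98.4% of the mitochondrial members' counts in liver and 77.5% to 97.2% in kidney. Its level ranged over 1985 to 14272 CPM in liver libraries and 1845 to 18660 CPM in kidney libraries, and among vehicle kidneys over 516 to 4792 CPM per kb. In kidney it averaged 5176 ± 682 CPM at 6 mmol/kg PCE (SD, n = 3), against 2010 and 4715 CPM in PCE vehicle kidneys. It was called in 0 comparisons with vehicle. The cause of its level and spread was not tested, and summed mitochondrial levels are given without it. The genes with the most similar profile over 29 kidney libraries were Malat1, a nuclear non-coding RNA (r = 0.623 on log2 CPM), Nkapd1 (0.61), Znrf1 (0.598), Cmya5 (0.569) and Xaf1 (0.566).

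Profiles of 2 more members were compared with every gene over the 29 kidney libraries, which share their dose groups, so r is a description. These were chosen after their values were seen. Sars was most like Gars (r = 0.897), then Acot2 (0.868), Vnn1 (0.865), Gm15441 (0.862) and Slc6a9 (0.859). Without the 3 libraries at 6 mmol/kg PCE the values for these 5 genes were 0.685, 0.587, 0.666, 0.642 and 0.603. Cars2 was most like Mydgf (0.911), Golt1a (0.883), Tmed3 (0.863), Ddost (0.856) and Rpn2 (0.853), and 0.751 to 0.863 without those libraries. Kars, whose fitted kidney change was the highest, was most like Slc49a4 (0.726), Pkd1l2 (0.725), Asrgl1 (0.721), Rcan3 (0.689) and Carm1 (0.667), but at a mean of 6.1 counts these values are weak.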

How the data were processed

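Per the submitters' processing notes, reads were mapped to mm10 with TopHat2 2.0.10 after CASAVA 1.8.2 and counted with HTSeq; per the labels' protocols, libraries were made with TruSeq Total RNA and run on a HiSeq-2000. Neither the strand setting nor the annotation version is given there. The deposited values of the authors are whole-number counts per RefSeq transcript. The deposited columns were listed both as counts and as an expected count, per the file headers, only because their line of doses holds decimals; no rounding was needed. Reads shared by transcripts of a gene were set aside by the counter, so members with several rows keep transcript-specific reads. Rows that name no gene stayed out of library sizes; reads outside features were 14.29% to 27.53% of a library.

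Of 33392 transcript rows, 32988 were named by accession and 278 by the deposited symbol, and 126 stayed unnamed; rows were summed to 24124 genes. The deposited symbol Aars also stood on a row that RefSeq gives to another gene, Exosc6, and the sum for Aars includes it. Fitted without that row, the same members were called. edgeR 4.0.16 in R 4.3.3 was run per tissue (TMM factors, its default low-count filter, robust quasi-likelihood fit, Benjamini-Hochberg adjustment over all genes, threshold 0.05), for each dose against the same chemical's vehicle, for dose-rank slopes, for PCE minus TCE, and jointly for tissue. Replicate variation (common dispersion, square root) was 0.257 for liver and 0.157 for kidney. Alternatives were DESeq2 1.42.0, other scalings, no filter, a replicate block within and across tissues, length and GC slopes, pooled vehicle groups and each library left out. On simulated data for kidney at 6 mmol/kg PCE (14049 genes), 47% of 100 genes changed 1.5-fold and 77% of 100 changed 2-fold were called; for liver (12986 genes) these were 11% and 48%. Over 56 replicate pairs the smallest chi-square per gene was 14.6, so no pair was a duplicate.

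The members and gene lists were chosen with earlier results of these data known. Members were named by rule: called members with the largest changes at 6 mmol/kg, or the 3 with the smallest p where fewer than 3 were called, and a few per direction elsewhere.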

Additional observations from a re-analysis of the deposited data

Results flagged for a closer look

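For 3 members the response to 6 mmol/kg PCE differed between tissues by the joint test of the difference. Liver minus kidney was -0.84 for Aars (adjusted p 0.00682), -0.64 for Gars (adjusted p 0.01) and -0.59 for Vars (adjusted p 0.0167), with 35 members tested. With the length and GC slopes as covariates Aars (adjusted p 0.0597) and Vars (adjusted p 0.252) lost the call, and without PCE vehicle kidney library 2 all 3 did. With same-numbered liver and kidney libraries as blocks Gars lost it (adjusted p 0.0819).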

How the results depend on the processing

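In kidney at 6 mmol/kg PCE the rises of Gars and Iars kept their call in 39 of 39 alternatives, Sars in 38, Aars in 37, Lars in 36, Cars2 in 30 and Farsa in 13. Of the 39 alternatives 29 left out 1 kidney library, and most of these were outside the 2 vehicle and 3 dosed libraries compared. The counts of calls kept therefore say little about how far a call rests on the libraries compared. With both vehicle groups pooled 13 members were called in kidney at 6 mmol/kg PCE in place of 7, and over all genes 1359 in place of 581. For the PCE slope in kidney DESeq2 called 11 members in place of 6, and over all genes 972 in place of 466. For TCE at 6 mmol/kg in kidney DESeq2 called 2, pooled vehicles 1 and total counts 1 in place of 0. Over all genes these settings called 160, 43 and 103 in place of 26. For PCE minus TCE DESeq2 called 2 and the length and GC slopes 1 in place of 0, and over all genes 49 and 9 in place of 3.

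In liver the 3 calls at 6 mmol/kg PCE became 6 with DESeq2, 5 with pooled vehicles and 0 with length and GC slopes. Over all genes these settings called 1514, 1612 and 16 in place of 768. The added calls were lower cytosolic members, Aars, Farsa and Vars with DESeq2 and Aars and Vars with pooled vehicles. The liver GC slopes moved with PCE dose, so the fits with slopes cannot separate them from dose. The 1 call at lower liver doses became 2 with DESeq2, 3 with pooled vehicles, and 0 without a filter, with total counts or with the slopes, which also left 0 of 5 calls for the PCE slope. At 2 mmol/kg PCE, the dose of these calls, DESeq2 called 180 genes in all and pooled vehicles 268, in place of 24. No filter, total counts and the slopes called 5, 6 and 1 genes there. DESeq2 called 1 in place of 0 for the TCE slope in liver and for liver minus kidney under TCE. Over all genes it called 443 in place of 106 and 189 in place of 49.

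The replicate numbers did not pair libraries: same-numbered libraries deviated with a median r of -0.007 in liver and 0.008 in kidney, and 9 of 29 libraries in each tissue correlated best with their own number. With the replicate block, 1 of 3 liver calls at 6 mmol/kg PCE and 0 of 1 at lower doses were made, and kidney at 6 mmol/kg PCE had 6. Over all genes the block called 555 in liver and 534 in kidney at 6 mmol/kg PCE, in place of 768 and 581. With the block and the length and GC slopes together there were 0 for liver at 6 mmol/kg PCE, 0 at lower liver doses and 0 for the liver PCE slope, and Cars2 reversed to 0.0791 at 6 mmol/kg PCE and to 0.0795 per step.

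Total counts in place of TMM reversed the liver over kidney difference in vehicle libraries for 15 of the members called under TMM: Dars -0.81, Eprs -0.0804, Farsa -0.70, Gars -0.85, Iars -0.51, Lars -0.31, Rars -0.77, Vars -0.0911, Yars -0.65, Aars2 -0.51, Ears2 -0.11, Hars2 -0.66, Lars2 -0.19, Sars2 -0.53 and Vars2 -0.34. The cause of these changes was not tested. Same-numbered liver and kidney libraries deviated with a median r of 0.047 over 28 pairs, 11 of them over 0.1. Over 56 pairs of different number the median r was -0.025. The numbers were not taken as shared animals, but these values cannot show whether animals were shared. As blocks the same-numbered libraries left 26 calls for the vehicle tissues, 2 for liver minus kidney under PCE and 0 under TCE.

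Leaving out 1 library at a time gave 2 to 9 calls for kidney and 0 to 5 for liver at 6 mmol/kg PCE, 0 to 1 at lower liver doses, 4 to 7 for the kidney and 2 to 7 for the liver PCE slope, 0 to 1 for kidney PCE minus TCE, 23 to 27 for the vehicle tissues, and for liver minus kidney 0 to 3 under PCE and 0 to 1 under TCE.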
